A study of Mus musculus with 20 samples.

Results

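The regions described here are 3827 distal chromatin sites of mouse myeloid cells that were listed as accessible at every time up to 48 h after removal of estradiol (E2) and in none of the later lists. They were chosen from the deposited peak lists of 10 time points. Peaks of all lists that overlapped by at least 1 bp were chained into 88351 union regions, and a region was kept when it held a peak in all 7 lists from 0 to 48 h and none at 72, 96 or 120 h. Its widest peak also had to lie more than 1000 bp from the nearest transcription start site (TSS). The members made up 4.33% of the union regions and 17.3% (95% Wilson interval 16.8 to 17.8) of the 22138 distal regions listed at all 7 early times. The second number is the background against which the shares below are read. Since presence in the lists chose the members, their presence and absence is a description and carries no test.

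ATAC-seq reads accessibility from the places where the transposase Tn5 can insert sequencing adapters. It was applied to cultured ER-Hoxa9-Lys-GFP cells on a C57BL/6 background. All 20 samples came from this line and were grown in RPMI medium with fetal bovine serum and conditioned medium containing stem cell factor. The groups were cells kept with E2, called 0 h, and cells at 4, 8, 12, 24, 36, 48, 72, 96 and 120 h after washing into medium without E2, with 2 replicates each. Nuclei of a preparation were divided between 2 transposition reactions, and the replicates may therefore be technical ones. There were no samples kept with E2 for matched times, so time in culture and removal of E2 cannot be told apart. A single list was deposited for both replicates of a time. No spread between replicates could therefore be computed, no p-value is given, and intervals are 95% Wilson intervals that cover counting error only.

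As background, an estrogen receptor fusion holds its partner protein inactive until the ligand is present. Hoxa9 is a homeobox transcription factor that, kept active, holds myeloid progenitors in an immature, dividing state, and its loss lets them mature towards neutrophils and macrophages. Distal accessible sites include enhancers, the elements bound by transcription factors that raise the activity of genes at a distance. In blood cells they differ more between maturation stages than promoters do. The myeloid label of the line was checked against promoter peaks, that is peaks within 1000 bp of a TSS. In the 0 h list 32 of 36 genes of a list of myeloid transcription factors had one, as did 8 of 12 primary granule genes, among them Mpo (myeloperoxidase) and Ctsg (cathepsin G). Elane and Prtn3, serine proteases of the same granules, had none in any list. Other blood lists had 0 h promoter peaks too, at 17 of 30 progenitor, 17 of 28 neutrophil surface and 13 of 24 macrophage genes. The counts were 10 of 20 for erythroid and megakaryocyte, 8 of 25 for lymphoid and 4 of 18 for secondary and tertiary granule genes. For mast cell, basophil and eosinophil genes it was 7 of 20. Of 20 genes of tissues other than blood, 2 had a promoter peak at 0 h, Col1a1 (a collagen chain) and Foxa1 (a transcription factor of liver and other epithelia). The check thus sets the cells apart from other tissues more than from other blood lineages.

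No genome sequence was used here, so the members whose sequence could be shown are those that contain the start of a transcript annotated in RefSeq (assembly GRCm38.p6) but not used as the TSS in the deposited annotation. RefSeq promoter windows reach from 250 bases before to 50 bases after a start, and 18 windows lay wholly inside 17 members. The 4 windows below are shown because they hold TGANTCA, the core of the motif read by AP-1 factors such as Jun and Fos. It was the motif, among 10 searched, chosen for display after the counts were seen. Capitals mark the match, N is any base, both strands were searched, and each window is written 5′ to 3′ on the strand of its transcript.

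Gm28857, chr1:130741242-130741541, minus strand, within an intron of AA986860: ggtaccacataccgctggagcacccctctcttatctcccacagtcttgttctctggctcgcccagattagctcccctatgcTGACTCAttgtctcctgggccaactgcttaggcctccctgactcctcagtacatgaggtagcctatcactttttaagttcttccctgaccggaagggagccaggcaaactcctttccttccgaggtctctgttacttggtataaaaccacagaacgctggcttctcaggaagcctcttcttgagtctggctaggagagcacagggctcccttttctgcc

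Gm34325, chr2:122569443-122569742, plus strand, intergenic, nearest gene Gatm: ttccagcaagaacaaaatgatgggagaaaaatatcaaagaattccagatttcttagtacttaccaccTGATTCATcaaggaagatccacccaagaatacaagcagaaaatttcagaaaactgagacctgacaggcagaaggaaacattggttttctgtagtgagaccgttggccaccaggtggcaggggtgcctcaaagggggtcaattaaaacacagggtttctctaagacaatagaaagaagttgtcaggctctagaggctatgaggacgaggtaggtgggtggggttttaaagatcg

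Gm42283, chr4:47494806-47495105, minus strand, intergenic, nearest gene Sec61b: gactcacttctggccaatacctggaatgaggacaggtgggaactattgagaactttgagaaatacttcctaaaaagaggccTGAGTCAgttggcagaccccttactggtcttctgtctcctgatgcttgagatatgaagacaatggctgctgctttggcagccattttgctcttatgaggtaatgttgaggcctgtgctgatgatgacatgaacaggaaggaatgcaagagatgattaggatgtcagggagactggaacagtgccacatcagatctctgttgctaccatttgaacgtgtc

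Gm41113, chr14:25379027-25379326, plus strand, upstream of Zmiz1: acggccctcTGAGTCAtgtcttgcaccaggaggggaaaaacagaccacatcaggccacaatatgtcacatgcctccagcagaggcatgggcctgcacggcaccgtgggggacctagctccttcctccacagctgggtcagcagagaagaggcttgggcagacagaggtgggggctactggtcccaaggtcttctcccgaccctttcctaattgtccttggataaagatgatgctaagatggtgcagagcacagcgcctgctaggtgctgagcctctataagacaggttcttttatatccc

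In Gm34325 the capitals run 1 base past TGANTCA because the same letters, TGATTCAT, also match TGATTNAT, the letters searched for Hox and Meis factors together. The accessible region around the Gm41113 start lay upstream of Zmiz1, a coactivator gene, at a distance of -80141 bp from its TSS, and was 451, 604, 583, 725, 630, 612 and 513 bp wide in the 0, 4, 8, 12, 24, 36 and 48 h lists before it was absent. The region around the Gm28857 start was 906, 951, 1119, 993, 741, 847 and 790 bp wide in the same lists. TGANTCA stood in 5 of the 18 windows inside members (27.8%, 12.5 to 50.9), against 3 of 45 windows inside regions last listed at 72 h (6.67%), 1 of 10 inside regions last listed at 24 or 36 h (10.0%), 20 of 179 inside distal regions of all 10 lists (11.2%) and 7.81% of all 32851 windows. CANNTG, the E-box, stood in 17 of 18 (94.4%, 74.2 to 99.0), against 70.4% in regions of all 10 lists and 72.3% of all windows. GATAA, read by Gata factors, stood in 8 (44.4%, 24.6 to 66.3), against 28.9% in regions last listed at 72 h, 40.0% in those last listed at 24 or 36 h, 19.6% in those of all 10 lists and 25.4% of all windows. TGTGGT, read by Runx factors, stood in 7 (38.9%, 20.3 to 61.4), against 26.7, 30.0 and 17.9% in the same 3 sets and 16.8% of all windows. AGGAAGT, read by Ets factors such as PU.1, stood in 5 (27.8%, 12.5 to 50.9), against 15.6, 10.0 and 20.1% in these sets and 9.35% of all windows. TTGCNNAA, read by C/EBP factors, stood in 2 (11.1%), against 11.1, 10.0 and 20.1% in these sets and 10.8% of all windows. GGGNGGG stood in 5 (27.8%, 12.5 to 50.9), against 51.1, 40.0 and 48.6% in these sets and 48.1% of all windows. AGGAAGT and CAGGAAG can overlap by 6 bases, and CAGGAAG stood in 5 windows (27.8%, 12.5 to 50.9), against 13.3% in regions last listed at 72 h, 30.0% in those last listed at 24 or 36 h, 25.1% in those of all 10 lists and 13.3% of all windows. TGATTNAT stood in 1 window (5.56%, against 3.22%), and so did TTCNNNGAA, read by Stat factors (5.56%, against 8.30%). The 2 windows of Gm36365 lie in 1 member and overlap. An AGGAAGT match in their common part is counted in both, and the intervals treat such windows as separate. A match is a string of letters, not a bound site, and windows around transcript starts are a small and selected sample of the members.

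Mature microRNAs are given next because microRNA genes were among the genes with most members. They are written 5′ to 3′ from RefSeq with the seed, bases 2 to 8, in capitals.

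mmu-miR-582-5p: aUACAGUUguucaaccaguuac

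mmu-let-7i-5p: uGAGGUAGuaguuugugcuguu

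mmu-miR-218-5p: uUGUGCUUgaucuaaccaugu

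mmu-miR-205-5p: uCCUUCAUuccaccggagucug

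None of these seeds is shared with another of the 4. A microRNA gene was the nearest gene of 126 of 716 distal regions that turned out to be members (17.6%, 15.0 to 20.6), a share near the background of 17.3%. Mir582, whose gene lies in an intron of Pde4d, had 5 members of 12 distal regions, spread over Pde4d from 81370 bp before to 285290 bp after its own start. Mirlet7i, of the let-7 family that represses growth and progenitor genes such as Hmga2, had 4 of 5. Its distal regions numbered 8, 9, 7, 8, 8, 8, 8, 4, 2 and 0 in the lists from 0 to 120 h, while a promoter peak of Mirlet7i was in all 10 lists. The 4 members lay at 48137 and 50210 bp downstream within Ppm1h, at 2258 bp upstream, and at 19754 bp upstream within Mon2. Mir218-2 and Mir205 had 3 members each, of 4 and 5 distal regions, and Mir7094-2, in the antibody heavy chain locus, had 3 of 12.

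The first question was what else became of distal sites that stayed listed to 48 h. Beside the 3827 members, 7334 regions (33.1%) were listed at 72 h and no later, 3112 (14.1%) at 72 and 96 h, and 6902 (31.2%) in all later lists. The other patterns were rare, the most frequent being 517 regions (2.34%) listed at 72 and 120 h but not at 96 h. Members were therefore fewer than the regions last listed at 72 h and fewer than those that stayed. Of the 4273 distal regions absent at 72 h (19.3%), 446 (10.4%, 9.56 to 11.4) were listed again at 96 or 120 h, so absence at 72 h was not always lasting. Of the 7851 regions listed to 72 h and absent at 96 h, 517 (6.59%) were listed again at 120 h. Among 6777 promoter regions listed from 0 to 48 h, 174 (2.57%) showed the pattern of the members and 5276 (77.9%) were in every list.

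**Figure D1:**
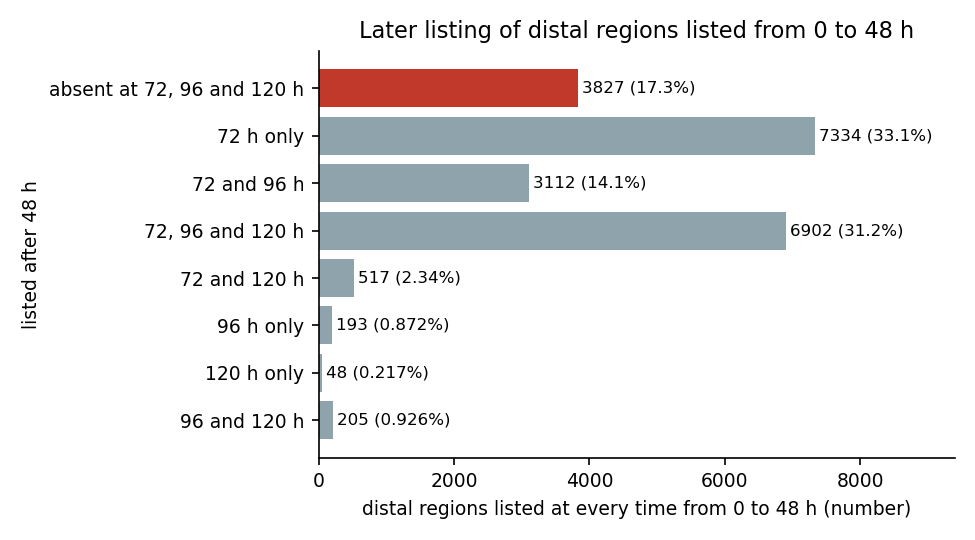
Number of distal regions listed at every time from 0 to 48 h (x axis) by the later lists that held them (y axis), with the percentage of all 22138 such regions. The 3827 members, in red, had no later peak, and the regions listed at 72 h only were the most numerous pattern with 7334.

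The lists themselves shortened over the same interval, and this moves with the choice of members. The lists of 0, 48, 72, 96 and 120 h held 55261, 59562, 46837, 29806 and 23620 peaks, of which 44654, 48434, 36478, 20226 and 14652 were distal. Median peak width was 474, 421, 487, 547 and 617 bp. Read depth and peak strength are unknown, since the lists give no counts and the deposited score of every peak is 0. When all lists were shortened to the 23620 widest peaks each, the length of the shortest, 593 regions met the rule, or 11.9% of the distal regions then listed from 0 to 48 h. With the widest 50% of each list, 1404 met it, or 20.1%.

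Few members had a late peak close by. The nearest 72 h peak lay a median 11695 bp from a member, and 117 members (3.06%) had one within 500 bp. At 96 h the median gap was 22292 bp with 47 members within 500 bp, and at 120 h it was 30506 bp with 43. A 72 h peak lay within 10 kb of 46.1% of members. The values were similar for regions last listed at 24 or 36 h. Their median gap to a 72 h peak was 11155 bp, with 4.52% within 500 bp and 47.0% within 10 kb. Overlap with a late peak was excluded by the rule, so the gaps follow in part from it. Of the members 3768 held a single peak in each early list, and 59 were split into more than 1 peak in at least 1 list. The width of a split region is the sum over its peaks.

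Peaks of members were narrower at 36 and 48 h than before. The median width was 420, 424, 425, 414, 398, 350 and 343 bp in the lists of 0, 4, 8, 12, 24, 36 and 48 h. Regions last listed at 72 h had almost the same medians up to 24 h, namely 421, 422, 429, 421 and 410 bp, and then 371, 377.5 and, at 72 h, 358 bp. Distal regions of all 10 lists were wider throughout, with medians between 509 and 586 bp. Their median rose from 524 bp at 48 h to 586 bp at 72 h, and 26.8% of them were narrower at 72 h. The first list without the members thus differed in width for regions that stayed listed as well. The median width of the members at 36 h lay below that at 24 h, as did that of the other sets, so this step was common to the lists. Width comes from the same peaks as the choice of members and is given as a description.

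**Figure D2:**
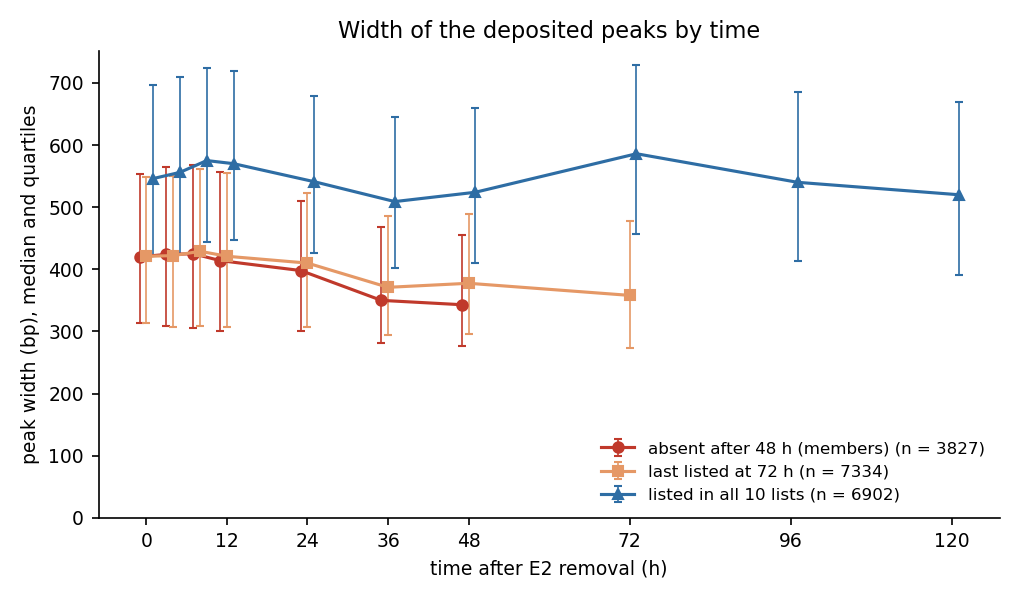
Median width in bp of the deposited peaks (y axis) against time after E2 removal in h (x axis), with bars from the lower to the upper quartile, for members, regions last listed at 72 h and regions of all 10 lists. Members and regions last listed at 72 h lie together to 24 h, and at 48 h stand at 343 and 377.5 bp, below the 524 bp of regions of all 10 lists.

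Within single regions the comparison was made between 48 h and 0 h. The median log2 ratio of width was -0.17 in members, where 76.4% (75 to 77.7) were narrower at 48 h, against -0.07 and 64.6% in regions last listed at 72 h and -0.04 and 60.4% in regions of all 10 lists. The step of 24 to 36 h gave the largest share of narrower members of the 6 steps, 66.9%, with a median log2 ratio of -0.07. At this step 63.1% of regions last listed at 72 h and 64.5% of regions of all 10 lists were narrower too. Regions last listed at 24 or 36 h, which have no peak at 48 h, narrowed likewise before they were absent. From 0 to 24 h their median log2 ratio was -0.17 with 74.9% narrower, against -0.06 and 62.2% in members. At their step of 12 to 24 h 71.2% were narrower. Narrowing before absence was thus not particular to members. From 0 to 48 h the order of members, regions last listed at 72 h and regions of all 10 lists was the same among regions of like starting width. Among regions 400 to 499 bp wide at 0 h the median log2 ratio was -0.28 in members, -0.14 in regions last listed at 72 h and -0.02 in regions of all 10 lists. Among those 300 to 399 bp wide it was -0.12, -0.03 and 0.05, and among those 500 to 599 bp wide -0.31, -0.21 and -0.05. With regions sorted into 5 classes by width at 48 h, the share of members was 31.8% among the narrowest regions (153 to 301 bp), then 19.2, 16.3, 12.0 and 6.88% among the widest (604 to 2000 bp). By width at 0 h it ran from 23.6 to 11.6%.

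A few members were wide in every early list and then had no peak at all. The member in intron 1 of Rora, a nuclear receptor gene, at chr9:69319509-69320928 was 1368, 1368, 1413, 1368, 1396, 1389 and 1392 bp wide in the 7 early lists. A member 44135 bp from the start of 6430573F11Rik was 1318 to 1479 bp wide, and one 125379 bp from 2810001G20Rik, on an L1MD2 LINE copy, 1117 to 1529 bp. The widest at 48 h, with 1611 bp, lay 19171 bp upstream of Sptlc2, which encodes a subunit of serine palmitoyltransferase, and was 818, 1192, 841, 826, 1528 and 723 bp wide in the lists before. The fifth, of 1174 bp at 48 h, was nearest to Npffr1, 58746 bp upstream and inside the body of Lrrc20. These 5 were chosen for their width at 48 h.

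Members lay farther from genes than distal regions that were listed longer. The median distance to the TSS was 25.5 kb for members, against 20.6 kb for regions last listed at 72 h, 20.3 kb for regions of all 10 lists and 27.0 kb for 2392 regions last listed at 24 or 36 h. More than 100 kb separated 15.3% (14.2 to 16.5) of members from their gene, against 9.44, 10.2 and 15.8% in the same 3 sets. The share of members among distal regions was 14.0% at 1 to 5 kb and 24.8% beyond 100 kb, with 16.0, 16.8 and 19% in the classes between. Distances ran from 1011 bp to 1471.2 kb, and 1619 members (42.3%) lay upstream. Just above the limit of 1000 bp were members at 1011 bp upstream of Chrm5, 1020 bp upstream of Slc5a5 and 1027 bp upstream of Flt3l. Just below it, and so left out, were regions at 995 bp from Peg13, 995 bp from Nedd4 and 991 bp from Fanci.

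Position relative to transcripts hardly separated members from other distal sites. Introns held 1679 members (43.9%), which is 17.2% of intronic distal regions, and intergenic sequence held 1919 (50.1%), or 17.4% of intergenic ones. Exons held 87, transcript ends 73, untranslated regions 61 and non-coding transcripts 8. CpG islands stood apart: 17 of 371 distal regions on an island were members (4.58%, 2.88 to 7.22). Bodies of protein-coding genes held 1900 members (49.6%), against 49.5% of all 22138 distal regions, and 1258 members lay in the body of their nearest gene.

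Among 13 repeat families with at least 100 regions, B2 SINEs had the highest share of members. Repeats of all kinds held 888 members, or 23.2% of them. LTR elements, the remains of endogenous retroviruses, held 334 of 1931 (17.3%), LINEs 131 of 732 (17.9%) and DNA transposons 28 of 165 (17.0%). SINEs held 327 of 1317 (24.8%, 22.6 to 27.2). Within the SINEs the share was 13.5% for 155 Alu (B1) copies, 16.4% for 171 B4 copies and 12.2% for 123 MIR copies, whereas 257 of 833 B2 copies were members (30.9%, 27.8 to 34.1). B2 elements are short rodent repeats copied from a tRNA gene and transcribed by RNA polymerase III, and some carry CTCF motifs.

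The B2 share was similar in each B2 subfamily. It was 35.8% (28.8 to 43.6) for 159 B2_Mm2 copies, 29.3% for 461 B3 copies and 29.4% for 194 B3A copies. B2 copies made up 6.72% (5.97 to 7.55) of members, against 5.90% (5.39 to 6.47) of regions last listed at 72 h, 0.667% of regions of all 10 lists and 3.76% of regions last listed at 24 or 36 h. B2 copies were thus more frequent in the sets last listed at 48 or 72 h than in the set of all 10 lists. Width moved with this result. In the narrowest of 4 classes of width at 0 h (157 to 346 bp) 35.8% of B2 regions were members, against 21.8% of other regions, and in the wider classes the pairs were 24.9 and 18.5%, 16.2 and 15.3%, and 15.6 and 11.9%. The difference was largest among the narrowest regions. Near-identical copies can share reads, and the placing of such reads is not described in the sources used here.

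**Figure D3:**
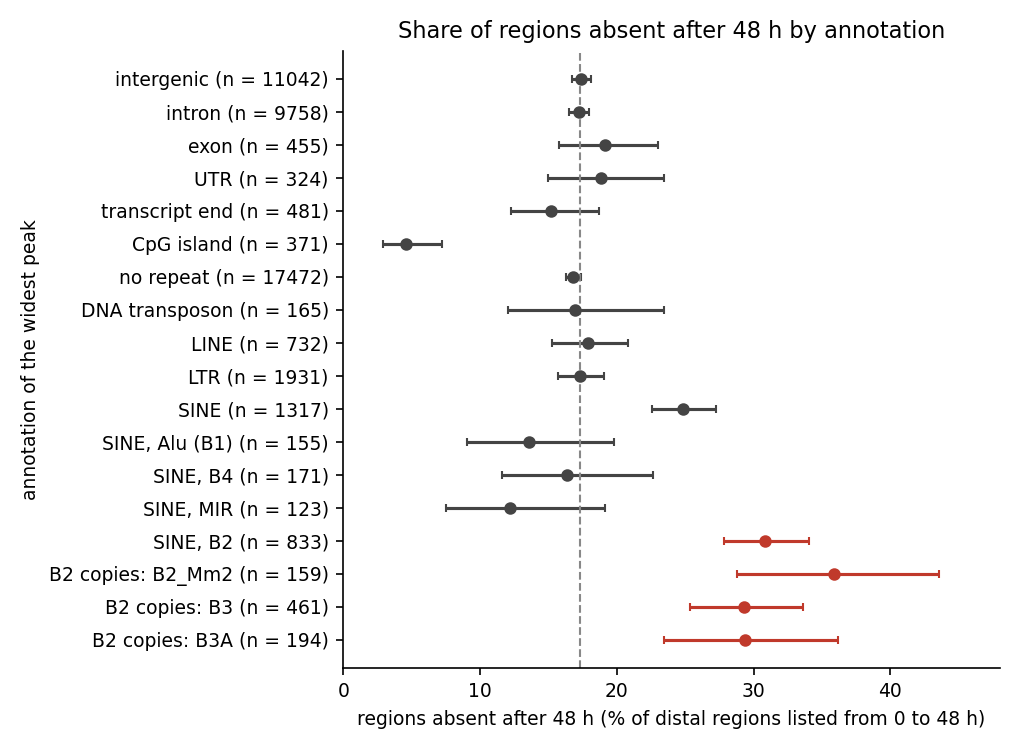
Percentage of distal regions listed from 0 to 48 h that were members (x axis), by annotation of the widest peak (y axis, with the number of regions), as points with 95% Wilson intervals. The dashed line is the 17.3% of all 22138 regions, which B2 copies, in red, exceed at 30.9% and CpG islands miss at 4.58%.

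Next to a member, other members were more frequent than next to other distal regions. The nearest other distal region was itself a member for 853 of 3827 members (22.3%, 21.0 to 23.6), against 2737 of 18311 other regions (14.9%). The order held at neighbour distances of 0 to 5 kb (19.6 against 12.0%), 5 to 20 kb (22.2 against 13.7%) and 20 to 100 kb (21.9 against 17.2%). Members also stood in sparser surroundings, with a median gap of 21.1 kb to the next distal region, against 14.3 kb for the others. By chromosome the share of members ran from 10.3% on chromosome 19 (75 of 730) to 21.7% on chromosome 3 (259 of 1194), leaving aside chromosome Y, where 0 of 19 regions were members (upper bound 16.8%), and it was 19.6% on chromosome X.

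Antigen receptor and ribosomal RNA loci were looked at apart, since they are arrays of related segments or genes. The array of T cell receptor alpha variable segments, at chr14:52427967-54224198 with 202 annotated genes, had 17 members of 41 distal regions (41.5%, 27.8 to 56.6). Of these 17, 15 were assigned to Gm30214, the gene with most members. The kappa light chain array had 5 of 13 and the heavy chain array 7 of 58 (12.1%). The array of 5S ribosomal RNA genes on chromosome 8, at chr8:123538784-123622046 with 48 genes, had 7 of 27, of which 5 were assigned to Gm26391. Peaks in such arrays may share reads. Outside all such arrays the share of members was 17.2% and the share of members with a member as nearest region 22.2%, so neither rested on them.

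The members were spread over many genes. Their nearest genes, as deposited, numbered 3151 of the 10497 genes with a distal region listed from 0 to 48 h (30.0%). Of these 2628 had 1 member and 523 had more. At least 3 members were assigned to 105 genes, of 2715 genes with at least 3 such regions (3.87%). This count was 393 where 1 of the 7 early lists might lack the site, 10 with the widest 50% of each list and 1 with the 23620 widest peaks of each. Many genes with a member also had regions of other patterns. A region last listed at 72 h was found for 1319 (41.9%) and a distal region of all 10 lists for 1047 (33.2%). A region absent to 8 h and present from 72 h on was found for 348 (11%). For 1171 genes the members were the only distal regions listed from 0 to 48 h. The same shares over all 10497 genes were not computed, so these counts are a description and do not set genes with members apart. In 11 of the 2715 genes with at least 3 such regions, all of them, 3 in each gene, were members. Among these genes were Sfrp2, a secreted Wnt antagonist, Fcmr, the receptor for IgM, Pard3, a cell polarity gene, and Dlg2. Regions missing from some early list are not counted here, and Pard3 still had 7, 3 and 1 distal regions at 72, 96 and 120 h.

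**Figure D4:**
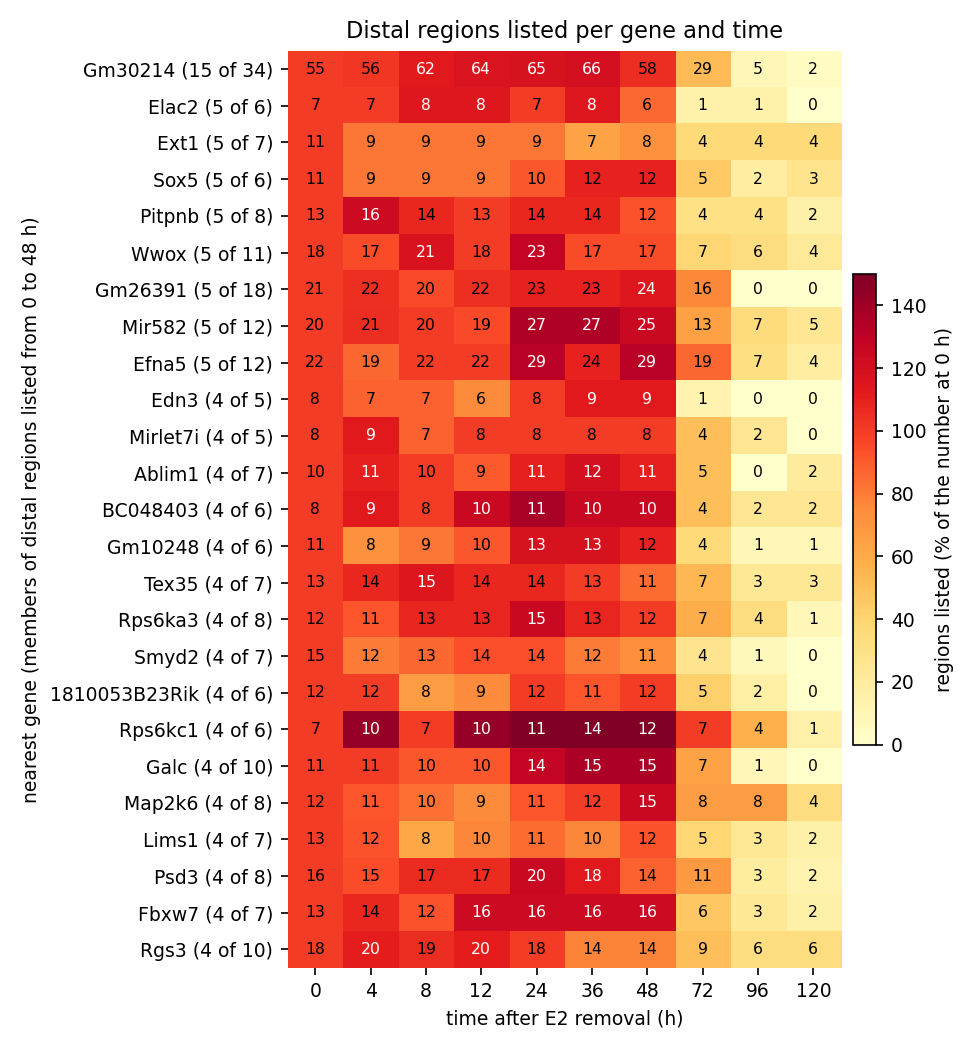
Number of distal regions in the list of each time (x axis, h after E2 removal) for 25 of the 28 genes with at least 4 members (y axis, with members of distal regions listed from 0 to 48 h), coloured by the percentage of the number at 0 h. Counts include regions that are not members. Elac2 had 6 regions at 48 h and 1 at 72 h, and Edn3 9 and 1.

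Of 28 genes with at least 4 members, 25 were taken up, and S1pr1, Auts2 and Fut8, with 4 each, fell outside because a smaller share of their regions were members. The 25 included several that act in signalling between cells. Edn3, which encodes the secreted peptide endothelin 3, had 4 members of 5 distal regions, all downstream at 110814 to 145566 bp. Its distal regions numbered 8, 7, 7, 6, 8, 9, 9, 1, 0 and 0 in the lists from 0 to 120 h, with no promoter peak in any. Efna5, which encodes the membrane-bound ligand ephrin A5, had 5 of 12, the farthest 895239 and 1276936 bp downstream. Ext1, a glycosyltransferase that builds the heparan sulfate chains to which many ligands bind, had 5 of 7, all in its intron 1. Its member at chr15:53156892-53157950 was 695, 1059, 636, 734, 665, 568 and 731 bp wide in the 7 early lists, and that at chr15:53139964-53140893 was 805, 930, 773, 632, 614, 583 and 568 bp wide. The first shows no trend, and the second was narrower in each list after 4 h. A promoter peak of Ext1 was in all 10 lists.

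Kinases and adaptors inside the cell were also among them. Map2k6, the kinase that activates p38, had 4 members of 8. Rps6ka3, the kinase RSK2, had 4 of 8. Its member at chrX:159210628-159211502, 44745 bp upstream, was 819, 763, 623, 664, 546, 458 and 340 bp wide, so the last value was the lowest. Lims1, an adaptor of integrin signalling, had 4 of 7, all within its body. Rgs3, which shortens G protein signals, had 4 of 10. Psd3, an exchange factor for Arf GTPases, had 4 of 8, and Ablim1, an actin-binding LIM protein, 4 of 7.

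Other members lay near regulators of transcription and of protein and RNA turnover. Sox5, an HMG-box transcription factor known from cartilage and nerve, had 5 of 6, and 6 members lay in its gene body. The 5 assigned to Sox5 ran from 32706 bp downstream to 120010 bp upstream of the TSS used, and the member at chr6:144190700-144191369 was 632, 557, 533, 435, 518, 420 and 386 bp wide. Fbxw7, the part of a ubiquitin ligase that recognises cyclin E and Myc, had 4 of 7. Smyd2, a lysine methyltransferase, had 4 of 7, with distal regions numbering 15, 12, 13, 14, 14, 12, 11, 4, 1 and 0. Elac2, which trims the 3′ ends of tRNA precursors, had 5 of 6, all upstream at 10384 to 223290 bp. The member at chr11:64781696-64782433 was 678, 702, 702, 697, 672, 645 and 609 bp wide, and a promoter peak of Elac2 was in all 10 lists. Others among the 25 were Galc, the lysosomal galactosylceramidase (4 of 10), Wwox, an oxidoreductase gene at a fragile site in humans (5 of 11), Rps6kc1 (4 of 6), Tex35 (4 of 7) and Pitpnb, a phosphatidylinositol transfer protein. The 5 members of Pitpnb lay in the body of its neighbour Ttc28, which held 6 of 12. BC048403, 1810053B23Rik and Gm10248 had 4 of 6 each, those of Gm10248 all in the body of Kcnma1, a potassium channel gene. By gene body Pde4d, a cAMP phosphodiesterase, held most, 8 of 26 regions.

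Gene lists of the myeloid lineage were compared next. They were chosen with earlier results of these data known, and held 357 genes in 16 lists, 341 of them with a region. Counts are members of distal regions listed from 0 to 48 h, to be read against 17.3%. The intervals treat regions of a gene as separate, and some genes are in more than 1 list. No allowance is made for comparing 16 lists. Whether an interval includes the background is therefore a description and not a test. Genes of the progenitor state did not stand out: 13 of 76 for progenitor and stem cell genes (17.1%, 10.3 to 27.1) and 12 of 89 for genes known as Hoxa9 and Meis1 targets (13.5%, 7.88 to 22.1). Meis1, the homeobox partner of Hoxa9, had 2 of 6. Its intron 7 member at chr11:18948642-18949652 was 749, 1011, 889, 726, 771, 456 and 621 bp wide, and the member 264928 bp downstream 399, 402, 496, 509, 510, 407 and 264 bp. Both were narrower at 48 h than at 0 h, while the promoter peak of Meis1 was in all 10 lists. Angpt1, a ligand of the Tie2 receptor, had 2 of 6, Mecom, a stem cell transcription factor, 1 of 2, Hmga2, a chromatin protein of progenitors, 2 of 5, and Camk2d, a calcium-dependent kinase, 2 of 7.

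The lists of myeloid transcription factors and of maturing myeloid cells had shares below the background, most with intervals that included it. The transcription factors are not genes of maturing cells alone, with promoter peaks at 32 of 36 genes at 0 h and 30 at 120 h. Their list had 12 of 127 (9.45%, 5.49 to 15.8), with the 127 regions assigned to 32 genes. It was the only list whose interval lay wholly below the background. Among these factors Runx2 had 3 of 9, Jun 2 of 14 and Etv6, which is in this list and in that of Hoxa9 targets, 2 of 9. Neutrophil surface and chemotaxis genes had 4 of 52 (7.69%, 3.03 to 18.2), among them 1 each for Selplg (the selectin ligand PSGL-1) and Tlr2 (a receptor for bacterial lipoproteins). Secondary and tertiary granule genes had 0 of 12, with an upper bound of 24.2%. Macrophage, monocyte and dendritic cell genes had 5 of 53 (9.43%, 4.10 to 20.3), of which 2 were near Adgre1, the macrophage antigen F4/80, and 1 each near Ly6c2, a monocyte surface antigen, and Zbtb46, a dendritic cell transcription factor. Of the distal regions listed from 0 to 48 h near these macrophage genes, 60.4% were in all 10 lists, against 44.1% for myeloid transcription factors and 31.2% for all 22138.

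The primary granule genes, which are switched on early in neutrophil development, had 3 of 23 (13%, 4.54 to 32.1). Elane, neutrophil elastase, had a single distal region listed at every time from 0 to 48 h, and it was a member. With regions missing from some early list counted too, its distal regions numbered 1, 2, 2, 2, 2, 2, 2, 1, 0 and 0 in the lists from 0 to 120 h. Thus 1 was still listed at 72 h. The member lay 1732 bp upstream at chr10:79884312-79884841 and was 468, 502, 496, 522, 510, 507 and 496 bp wide in the 7 early lists. It shows no narrowing before it was absent. Serpinb1a, an inhibitor of elastase, had 2 of 6. Its intron 2 member at chr13:32849068-32849521 was 404, 377, 393, 413, 428, 379 and 382 bp wide, also with no trend.

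**Figure D5:**
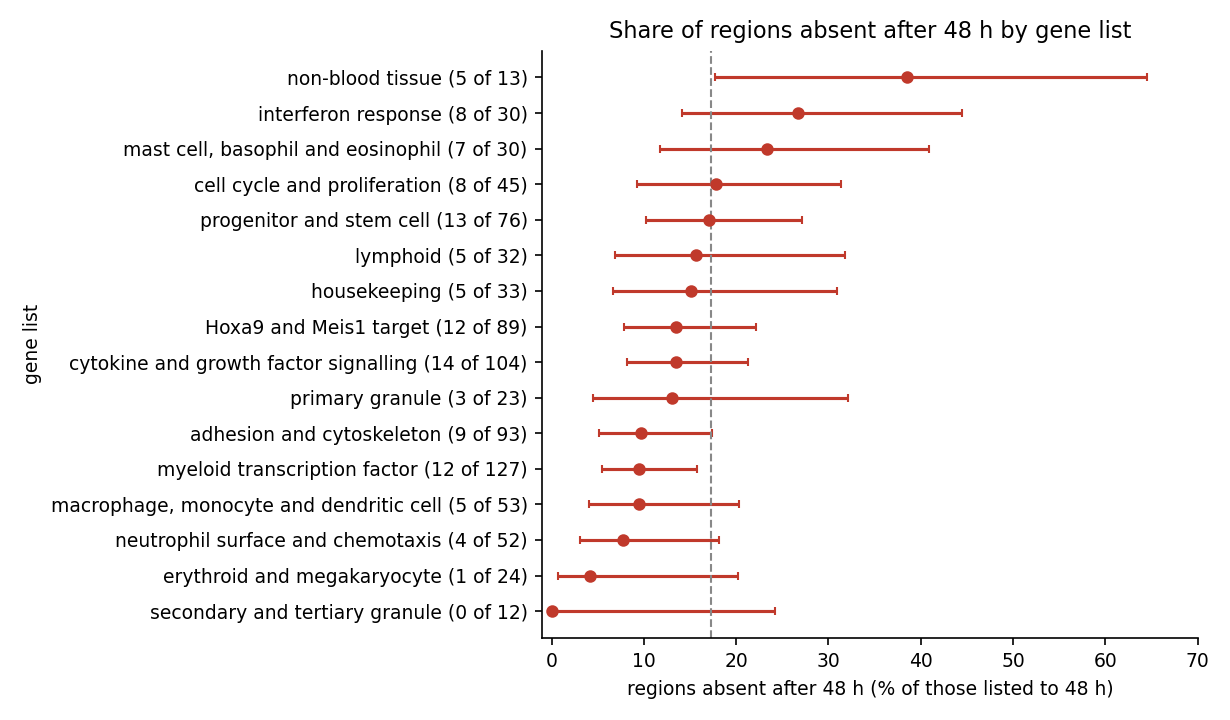
Percentage of distal regions listed from 0 to 48 h that were members (x axis) for each of 16 gene lists (y axis, with counts), as points with 95% Wilson intervals. The dashed line is the 17.3% of all 22138 regions. The myeloid transcription factor list lies below it at 9.45%, and the list of genes of tissues other than blood above it at 38.5% with 5 of 13.

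The intervals of the other lists of blood and common cell functions included the background. Cell cycle genes had 8 of 45 (17.8%, 9.29 to 31.3), of which 3 were near Mki67, the proliferation antigen Ki-67, at 74872 to 154809 bp upstream, 2 near Ccne1 (cyclin E) and 1 near Cdkn2c, an inhibitor of Cdk4 and Cdk6. Cytokine and growth factor signalling genes had 14 of 104 (13.5%, 8.19 to 21.3). Spred2, an inhibitor of Ras signalling, had 3 of 10, and its intron 1 member at chr11:19938441-19939836 was 1049, 1273, 1377 and 1365 bp wide to 12 h and 585, 561 and 513 bp wide at 24, 36 and 48 h. Pik3r1, the regulatory subunit of PI3 kinase, had 2 of 10. Interferon response genes had 8 of 30 (26.7%, 14.2 to 44.4), including 2 of 3 for Ifit1 and 1 of 2 for Oas2. Adhesion and cytoskeleton genes had 9 of 93 (9.68%, 5.18 to 17.4), with 2 each for the integrin chains Itga4 and Itga9 and for Diaph3, a formin that builds actin filaments. Housekeeping genes had 5 of 33 (15.2%, 6.65 to 30.9), among them 3 near Ywhaz and 1 near Hprt.

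Genes of other cell types were counted to see whether members marked another lineage. Mast cell, basophil and eosinophil genes had 7 of 30 (23.3%, 11.8 to 40.9), among them 2 of 8 for Mitf, a mast cell transcription factor, and 1 each for Mcpt8, a basophil protease, and Il5ra, the eosinophil interleukin 5 receptor. Lymphoid genes had 5 of 32 (15.6%, 6.86 to 31.8), among them 2 for Themis and 1 for Ikzf1. Erythroid and megakaryocyte genes had 1 of 24 (4.17%, 0.739 to 20.2), near Tal1. Genes of tissues other than blood had 5 of 13 (38.5%, 17.7 to 64.5), with both distal regions of Foxa2 listed at every time from 0 to 48 h and the single ones of Hnf4a and Myod1. This interval lay wholly above the background, on 13 regions of 9 genes, and the difference was not tested. Foxa2, Hnf4a and Myod1, which specify liver and muscle, had no promoter peak in any list, and neither did Gata1 or Klf1, which specify red cells. Promoter peaks were listed at 0 and 120 h for 7 and 3 of the 20 mast cell, basophil and eosinophil genes, 8 and 6 of the 25 lymphoid genes, 10 and 4 of the 20 erythroid and megakaryocyte genes, and 2 and 2 of the 20 genes of other tissues. Their part in the counts of members was not tested.

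Whether the promoter of the nearest gene stayed listed was asked last. The lists of 0, 48, 72 and 120 h held a promoter peak of the nearest gene for 45.9, 46.5, 43.4 and 38.9% of members. For regions last listed at 72 h the shares at 0 and 120 h were 50.9 and 43.5%, and for regions of all 10 lists 56.0 and 50.3%. The 48 h list held such a peak for 1781 members, and of these 84.7, 79.7 and 74.7% still had it at 72, 96 and 120 h. The same shares were 86.5, 81.5 and 76.6% for regions last listed at 72 h and 86.2, 84.6 and 79.0% for regions of all 10 lists. Most of these promoters were thus in the lists from which the members were absent. Promoters share genes between members and the other sets, so these shares are not independent.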

How the data were processed

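ATAC-seq libraries of 20 samples, 2 per time point, were represented by 10 deposited peak lists, 1 per time for both replicates. How the replicates were combined is not described in the sources used here. BWA, MACS2 2.0 and STAR 2.5 are named in the submitters' processing notes, with no role. Annotation was against mm10 per the file headers, whereas the notes name mm9. Of 4488 peaks of the 0 h list within 100 bp of their TSS as deposited, 84.8% lay within 1000 bp of an end of that gene in GRCm38.p6, the assembly of mm10, so coordinates are given as mm10, counted from 1. The score deposited by the authors was 0 for every peak and was not used. Starts, ends, distances in bp, annotations and nearest genes are those deposited by the authors.

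Peaks of all lists were chained into regions at an overlap of 1 bp. The annotation and gene of a region were those of its widest peak. Shares carry 95% Wilson intervals. No test across replicates was possible, and the depth of a sample is unknown, as the lists hold no counts. Comparison sets were distal regions last listed at 72 h, last listed at 24 or 36 h, and listed in all 10 lists. Arrays were runs of at least 10 antigen receptor segments or ribosomal RNA genes in RefSeq with gaps of at most 200 kb. The members and the gene lists were chosen with earlier results of these data known. Named genes were the 25 with most members, ties going to the larger share of a gene's regions that were members, and up to 3 per gene list, and named regions the 5 widest at 48 h and the 3 on either side of the 1000 bp limit. The other genes and regions mentioned were chosen after their values were seen. Some genes and 1 window that met these rules are not reported here. Motif content around region centres was planned and not analysed here, since it needs a genome sequence, and motifs were counted in RefSeq promoter windows inside regions in its place. Of 20000 simulated regions, 100% were sorted into the right pattern. These regions lay apart, with at most 1 peak in a list and all peaks of a region overlapping. Chained neighbours and split regions were therefore not tried. The scripts ran in Python 3.11.15 with pandas 2.3.3, numpy 2.4.6 and scipy 1.17.1, and figures were drawn with matplotlib 3.10.9.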

Additional observations from a re-analysis of the deposited data

How the results depend on the processing

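The results were recomputed under 13 alternatives, of which leaving out the repeated arrays was chosen after seeing the data, as were the B2 and neighbour results. Of 143 values 112 stayed within the interval or spread of the value reported, or within 1.5 times of a count, and 31 moved. The intron share moved under none. Where 1 of the 7 early lists might lack the site, members numbered 7317 (23.8% of distal regions) at 5301 genes, the B2 share was 40.6% and members had a member as nearest region in 29.9%. With 4 and 8 h ignored the member share was 19%, the B2 share 34.4% and the nearest-region share 24.1%, and with 96 and 120 h ignored the member share was 19.3%. With each list reduced to its 23620 widest peaks there were 593 members (11.9%) at 566 genes, 14.2% of them on repeats and 41.8% with a promoter peak at 120 h, the nearest-region share was 15.0%, and the B2 share was 14.3% on 21 B2 regions. With the widest 50% there were 1404 (20.1%) at 1275 genes, with 14.9% on repeats and 35.5% with a promoter peak. The B2 share was above the share of all regions under each of the 13, but many of these hold nearly the same B2 regions. With the widest 50% it was 33.3% on 36 B2 regions, against 20.1% of all. The comparisons on 21 and 36 B2 regions rest on few regions. No paired analysis was possible because a single list stands for both replicates of a time, and for the same reason no replicate could be left out. The lists hold no counts, so no depth limit can be given for the absence of a peak.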
